A study of Mus musculus with 7 samples.

Results

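Chemokines are small secreted proteins that bind G protein-coupled receptors on other cells and draw those cells along a gradient. They are sorted into CC, CXC, XC and CX3C families by the spacing of the cysteines near their amino terminus, and many of their genes stand side by side in clusters. Dendritic cells, the antigen-presenting cells cultured here, release chemokines that attract monocytes, T cells and NK cells, and use chemokine receptors such as CCR7 to reach lymph nodes themselves. The ligands described here are all mouse genes on the arrays whose symbol starts with Ccl or Cxcl and a digit, with Xcl1 and Cx3cl1 added. They number 36 of 20018 named genes, with 22 of the CC family, 12 of the CXC family and Xcl1 and Cx3cl1. For 22 of them a probe was marked well above background on 3 or more of the 7 arrays, and these were tested, and the other 14 were dim.

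RNA of dendritic cells grown from common myeloid progenitors was hybridised to 7 one-colour Agilent arrays, 3 labelled knockout and 4 labelled control. The progenitors of the arrays labelled knockout came from Gata2(f/f)/ER-Cre mice, which carry floxed Gata2 alleles and a Cre named ER-Cre, and those of the control arrays from Gata2(f/f) mice without Cre. Mice of both genotypes were on the C57BL/6 background, carried CD45.2 and received tamoxifen between day 1 and day 10. Common myeloid progenitors were sorted on day 20 to 22 and grown with FLT3-L (200 ng/ml) on a feeder layer of SJL bone marrow (CD45.1+). No source used here says how the dendritic cells were parted from that layer. Nor is the promoter that drives Cre, the age of the mice or a separate animal behind each array given, so a p-value here measures array-to-array spread that may be technical. Cre was present only in the arrays labelled knockout, and these arrays also stood in another row of the slides than the control arrays, so Cre, slide row and genotype cannot be told apart.

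Signals are given as log2 of the processed signal minus the array's 75th percentile, so 0 is the 75th percentile of that array and 1 unit is a 2-fold difference in signal. The share of spots well above background was 61.5% to 67.4% in the arrays labelled knockout, against 54.1% to 56.9% in the control arrays. The Gata2 probe read 2.93, 3.00 and 3.06 on the arrays labelled knockout, against -0.25, 0.24, 0.36 and 0.34 on the control arrays. This is 2.82 higher on the log2 scale in the arrays labelled knockout (SE 0.17, limma, adjusted p = 0.000153), which goes against their label, and no source used here places the probe inside or outside the deleted part. Directions below are therefore those of the arrays labelled knockout. Of 14549 genes tested, 217 (1.49%) were higher and 201 (1.38%) lower in the arrays labelled knockout at an adjusted p under 0.05.

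Some, but not all, marker lists of other cell types moved with the groups. Beside the counts below, 1.38% of all tested genes were called lower and 1.49% higher by limma. At an unadjusted p under 0.05 these shares were 7.35% and 6.14%. All 6 tested dendritic cell markers missed the threshold, with 0 at an unadjusted p under 0.05, and their summed linear signal, in multiples of the 75th percentile, was 174 to 197 in the arrays labelled knockout, against 182 to 221 in the control arrays. Monocyte and macrophage markers fell in 5 of 9 cases (7 lower at an unadjusted p under 0.05), with sums of 38.8 to 50.1 in the arrays labelled knockout, against 55.5 to 71.2 in the control arrays. Most of that sum is Csf1r, which did not pass and whose groups overlapped (log2 difference -0.30, limma, adjusted p = 0.472). Megakaryocyte and platelet markers fell in 4 of 7 cases (31.2 to 38.0, against 52.9 to 82.2 in the control arrays) and neutrophil markers in 2 of 8 (110 to 156, against 157 to 179 in the control arrays; 7 lower at an unadjusted p under 0.05). Csf3r and Mpo make up most of the neutrophil sum. On some granule genes replicate 1 of the arrays labelled knockout read like the control arrays, and Camp and S100a8 were chosen here after their values were seen. Camp read 0.62, -3.80 and -4.42 in the arrays labelled knockout, against 1.33, 1.04, -0.66 and 0.05 in the control arrays (adjusted p = 0.288). S100a8 read -0.18, -3.17 and -3.34 in the arrays labelled knockout, against -0.40, 0.56, -0.06 and -0.18 in the control arrays (adjusted p = 0.198). For both, replicate 1 lay within the range of the control arrays and replicates 2 and 3 far below it. Other genes of the list went otherwise: on Elane (2.17), Prtn3 (3.43), Mpo (5.09) and Ltf (-1.43) replicate 1, too, lay below every control array. Of 8 mast cell and basophil markers, 6 fell, and without Gata2 the 7 others summed to 0.742 to 1.03 in the arrays labelled knockout, against 9.77 to 21.7 in the control arrays. T and NK cell markers rose in 2 of 7 cases (Gzma and Nkg7), with sums of 12.9 to 14.7 in the arrays labelled knockout, against 4.20 to 5.14 in the control arrays, while Ncr1, a defining NK cell gene, was well above background on 0 arrays. Most of that sum is Nkg7, at 9.60 to 12.2 in the arrays labelled knockout, against 2.02 to 2.73 in the control arrays, and the T cell genes of the list did not pass, with log2 differences of 0.01 (Cd3d), -0.05 (Cd3e) and 0.05 (Cd4). Markers of stroma and endothelium, which the feeder layer could hold, had 0 of 8 past the threshold (1 higher at an unadjusted p under 0.05) and sums of 3.83 to 4.98 in the arrays labelled knockout, against 3.19 to 3.63 in the control arrays, and Col1a1 was well above background on 0 arrays. B cell markers had 0 of 4 past the threshold and 0 at an unadjusted p under 0.05. Their sums were 13.2 to 16.4 in the arrays labelled knockout, against 13.0 to 17.6 in the control arrays. Of the dendritic cell subsets, plasmacytoid markers had 0 of 5 past the threshold and type 1 conventional markers 0 of 4, each with 1 lower at an unadjusted p under 0.05. Fewer cells of a type and less RNA per cell cannot be told apart in such bulk samples.

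No tested ligand passed the threshold as higher in the arrays labelled knockout (0 of 22 by limma), and 3 of 22 fell. At an unadjusted p under 0.05, 6 of 22 were lower and 4 higher, beside 7.35% and 6.14% of all tested genes. The 3 that fell were Cxcl5, Ccl6 and Ccl9, which is 13.6% of the tested ligands, beside 2.87% of all tested genes called in either direction and 1.38% called lower. The 2 groups of arrays did not overlap for 6 ligands (27.3%), beside 13.8% of all tested genes. Of these, 2 were higher in the arrays labelled knockout, beside 5.77% of all tested genes, and 4 were lower, beside 8.08%. Over the 22 ligands, 10 differences were positive and 12 negative, with a median log2 difference of -0.02, beside -0.05 over all tested genes. Cxcl5, Ccl6 and Ccl9 are ligands for myeloid cells: Cxcl5 attracts neutrophils through CXCR2, and Ccl6 and Ccl9 act through CCR1, which is carried by monocytes and other myeloid cells.

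The promoters of Ccl6 and Ccl9 are shown because these are neighbouring genes whose signal fell together, with that of Ccl3, another CCR1 ligand of the same cluster that did not pass, set beside them. Sequences are from RefSeq (GRCm38.p6), run 5′ to 3′ on the minus strand from 250 bases before to 50 bases after the gene's start, and capitals mark stretches of at least 10 bases shared exactly by the promoters of Ccl6 and Ccl9. They lie at chr11:83593038-83593337 (Ccl6), chr11:83578587-83578886 (Ccl9) and chr11:83649329-83649628 (Ccl3). Promoters of Ccl2, Ccl4, Ccl5 and Cxcl5 were not used here.
Ccl6: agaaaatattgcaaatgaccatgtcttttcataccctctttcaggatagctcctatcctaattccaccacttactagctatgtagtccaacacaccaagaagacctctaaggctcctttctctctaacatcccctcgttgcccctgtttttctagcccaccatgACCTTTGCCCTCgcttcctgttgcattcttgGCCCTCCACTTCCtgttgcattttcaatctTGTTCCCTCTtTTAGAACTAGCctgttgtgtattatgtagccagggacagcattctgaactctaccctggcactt
Ccl9: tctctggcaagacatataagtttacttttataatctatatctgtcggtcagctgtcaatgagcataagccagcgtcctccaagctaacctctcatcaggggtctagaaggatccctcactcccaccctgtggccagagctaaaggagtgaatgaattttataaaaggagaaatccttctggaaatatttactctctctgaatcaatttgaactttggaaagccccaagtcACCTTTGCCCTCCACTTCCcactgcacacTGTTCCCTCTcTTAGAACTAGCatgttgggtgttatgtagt
Ccl3: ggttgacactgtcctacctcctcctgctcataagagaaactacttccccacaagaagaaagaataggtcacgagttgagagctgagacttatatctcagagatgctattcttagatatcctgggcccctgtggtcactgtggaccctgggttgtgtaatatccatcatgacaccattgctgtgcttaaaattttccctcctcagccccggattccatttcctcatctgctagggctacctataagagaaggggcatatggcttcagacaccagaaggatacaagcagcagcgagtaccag
Ccl6 and Ccl9 shared 4 such stretches, covering 46 bases in Ccl6 and 40 in Ccl9, the longest of 13 bases. In Ccl9 the 2 furthest upstream overlap and are printed as a longer block of capitals, which Ccl6 holds only as separate parts. Ccl3 shared 0 with either, and its longest match to each was 8 bases. Of 32850 other promoters in the table, 66 (0.201%) shared a stretch of 13 bases or more with Ccl6, and 2 (0.00609%), Ccl9 among them, shared at least 4 stretches of 10 bases with it.

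Motifs were searched on both strands of the same windows as letters only. None of the 3 promoters held a GATA motif (AGATAA or AGATAG, or either with T as its first base), which 29.8% of all 32851 promoters hold. Ccl9 held TATAAA at 3 places, beginning at -224, -94 and -92 relative to the gene's start, with the matches at -94 and -92 overlapping on opposite strands (13.6% of all promoters hold it). It also held the AP-1 motif TGANTCA at -53 (7.81% of all promoters) and an NF-kB motif at -35 (4.51% of all promoters). Ccl3 held GAGGAA, the core of the PU.1 motif, at -33 (28.3% of all promoters), and Ccl6 held none of the 7 motifs searched, which also included TTCNNNGAA (8.30% of all promoters) and the interferon-stimulated response element, ISRE (3.44%). Of the 34 promoters listed for 28 ligand genes, some genes having several, a GATA motif was present in 29.4%, TATAAA in 29.4%, TGANTCA in 20.6%, an NF-kB motif in 20.6%, GAGGAA in 41.2%, TTCNNNGAA in 5.88% and the ISRE in 8.82%.

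**Figure D1:**
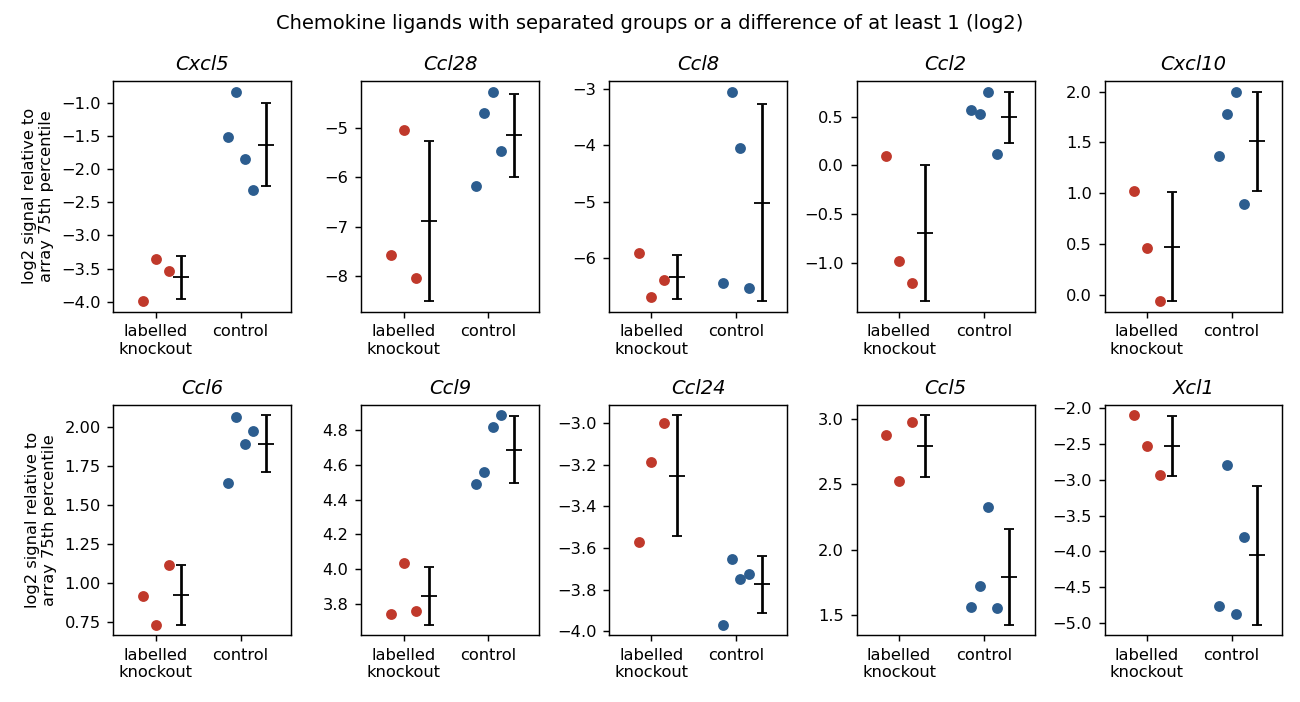
Signal of the ligands described one by one, on each array, as log2 of processed signal minus the array's 75th percentile (vertical axis), with the arrays labelled knockout on the left and the control arrays on the right of each panel; points are arrays and bars are mean ± SD (n = 3 and n = 4). The arrays labelled knockout lie below every control array for Cxcl5, Ccl6, Ccl9 and Ccl2, and above every control array for Ccl5 and Ccl24.

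Among the inflammatory CC ligands grouped with those of CCR1 and CCR3, receptors on monocytes and eosinophils, 2 of 6 tested members fell and 4 did not pass. Ccl6 read 0.92, 0.73 and 1.11 in the arrays labelled knockout, against 1.64, 2.06, 1.89 and 1.97 in the control arrays. The groups did not overlap, and the highest array labelled knockout stayed below the lowest control array. Ccl6 was 0.97 lower on the log2 scale (SE 0.16, 1.96-fold lower, limma, adjusted p = 0.014). Without replicate 1 of the arrays labelled knockout it missed the threshold (adjusted p = 0.0565), at a log2 difference of -0.97.

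Ccl9, the ligand encoded next to Ccl6, read 3.74, 4.04 and 3.76 in the arrays labelled knockout, against 4.49, 4.56, 4.81 and 4.88 in the control arrays. Again no array labelled knockout reached a control array. Ccl9 was 0.84 lower on the log2 scale (SE 0.15, 1.79-fold lower, limma, adjusted p = 0.026). It missed the threshold after quantile normalization (adjusted p = 0.0526), when every probe was tested on its own (0.0557), and when knockout-labelled replicate 1 (0.103) or 3 (0.133) or control replicate 3 (0.084) or 4 (0.0679) was left out. The log2 difference lay between -0.94 and -0.72 in all 21 refits. Sums of the monocyte, megakaryocyte and mast cell lists given above were also lower in each array labelled knockout than in each control array, and their part in the values of Ccl6 and Ccl9 was not tested.

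Ccl5, also named RANTES and made in quantity by activated T and NK cells, read 2.88, 2.53 and 2.97 in the arrays labelled knockout, against 1.56, 1.73, 2.33 and 1.55 in the control arrays. Every array labelled knockout was above every control array, with replicate 3 of the control arrays nearest to them. The log2 difference was 1.00 (SE 0.22, 2.00-fold) and missed the threshold (limma, adjusted p = 0.0587). It passed in 8 of 21 refits, among them the one without control replicate 3 (log2 difference 1.18, adjusted p = 0.0165) and normexp background correction (1.04, adjusted p = 0.0169), and over all 21 its adjusted p lay between 0.0165 and 0.234. Gzma and Nkg7 of the T and NK list, but none of its T cell genes, passed as higher on the same arrays, and their part in the value of Ccl5 was not tested.

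Ccl3 and Ccl4, inflammatory CC ligands made by activated leukocytes, stand in the same cluster as Ccl5, Ccl9 and Ccl6. Ccl3 had a log2 difference of -0.21 (95% interval -0.69 to 0.27, limma, adjusted p = 0.737). Ccl4 had a log2 difference of 0.03 (95% interval -0.39 to 0.46, adjusted p = 0.968). For both, the groups overlapped. Ccl24, an eotaxin that attracts eosinophils through CCR3, read -3.57, -3.19 and -3.00 in the arrays labelled knockout, against -3.97, -3.65, -3.75 and -3.72 in the control arrays. The groups did not overlap, but the log2 difference of 0.52 (SE 0.17) missed the threshold (adjusted p = 0.197). Ccl11, the other eotaxin, was dim on every array.

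Of the CCR2 ligands, which call monocytes out of the marrow, 3 were tested, 0 passed by limma and 1 had an unadjusted p under 0.05. That one was Ccl2, also named MCP-1, which read 0.10, -0.98 and -1.21 in the arrays labelled knockout, against 0.57, 0.53, 0.75 and 0.12 in the control arrays. The groups did not overlap, though replicate 1 of the arrays labelled knockout lay next to control replicate 4. The log2 difference was -1.19 (SE 0.31) and missed the threshold (limma, adjusted p = 0.113). Without replicate 1 of the arrays labelled knockout Ccl2 passed at a log2 difference of -1.58 (adjusted p = 0.0102), and with array weights at -1.36 (0.0421). On Camp and S100a8 replicate 1 lay within the range of the control arrays and replicates 2 and 3 below it. On Elane, Prtn3, Mpo and Ltf all 3 lay below every control array. The monocyte list was also lower in all 3, and the part of these cell types in the value of Ccl2 was not tested.

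Ccl8, a mouse ligand of this group that is known to act on CCR8 as well, read -5.92, -6.69 and -6.39 in the arrays labelled knockout, against -6.44, -3.04, -4.04 and -6.54 in the control arrays. Only control replicates 2 and 3 stood out, and the groups overlapped. Ccl8 was well above background on only 2 arrays labelled knockout and 2 control arrays. Its log2 difference of -1.32 (SE 0.83) missed the threshold (adjusted p = 0.566). Ccl12, named MCP-5 in the mouse, was well above background on 3 arrays labelled knockout and on 0 control arrays, and all 7 of its values lay under -5.32, the highest of the arrays' lowest well-measured signals. No size of its difference is given (adjusted p = 0.591), and Ccl7 was dim on every array.

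**Figure D2:**
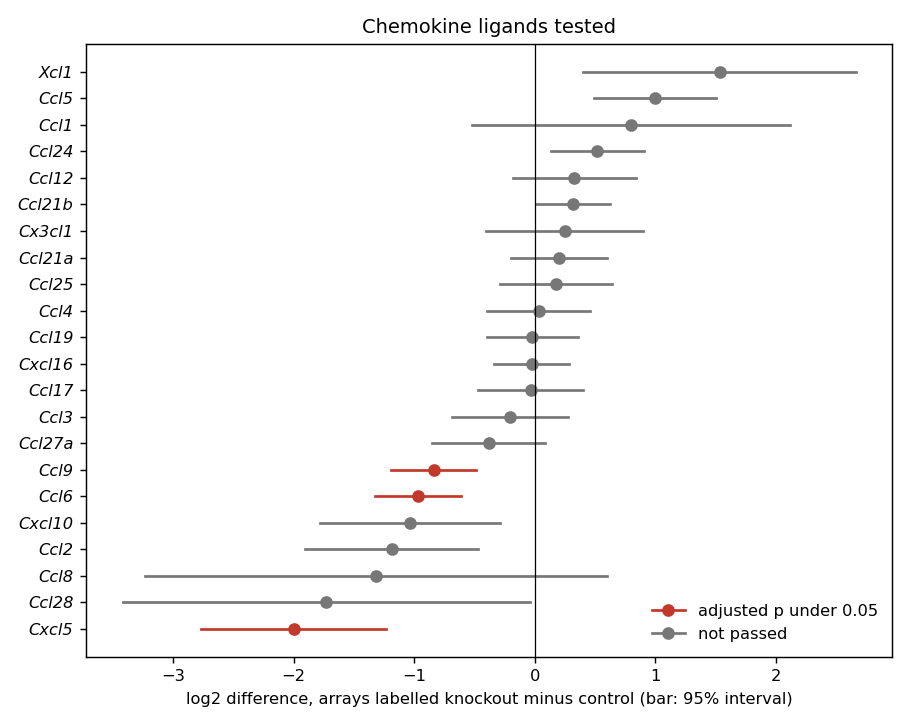
Log2 difference (horizontal axis, arrays labelled knockout minus control) for each of the 22 tested ligands; points are the limma estimates and bars their 95% intervals. Cxcl5, Ccl6 and Ccl9 are the 3 past the threshold, all to the left of 0, and Xcl1 has the largest positive difference at 1.53, with an interval from 0.40 to 2.67. Ccl12 and Ccl21a were well above background on 0 control arrays.

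Among the 5 ligands with a Cxcl symbol that were listed for CXCR2 and attract neutrophils, Cxcl5 alone was tested. It read -3.99, -3.36 and -3.54 in the arrays labelled knockout, against -1.52, -0.83, -1.85 and -2.32 in the control arrays. The highest array labelled knockout lay below the lowest control array, control replicate 4. Cxcl5 was 2.00 lower on the log2 scale (SE 0.33, 4.00-fold lower, limma, adjusted p = 0.0172). It missed the threshold with all signals floored at the common level of -5.32 (adjusted p = 0.053), and when knockout-labelled replicate 1 (0.072) or 3 (0.0695) or control replicate 1 (0.05) was left out. Cxcl1, Cxcl3 and Cxcl15 were dim on every array, and Cxcl2 was well above background on 1 control array only.

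Cxcl5 stands at one end of the CXC cluster on mouse chromosome 5, followed in order by Ppbp, Pf4, Cxcl3, Cxcl15, Cxcl1 and Cxcl2. Ppbp and Pf4 encode platelet chemokines whose symbols do not carry the Cxcl name. Ppbp read -0.14, -1.29 and -0.13 in the arrays labelled knockout, against 2.62, 2.26, 1.11 and 1.33 in the control arrays. It fell by 2.35 on the log2 scale (SE 0.44, limma, adjusted p = 0.0283) with no overlap of the groups. Pf4 read 4.89, 4.64 and 4.91 in the arrays labelled knockout, against 5.58, 5.98, 5.97 and 5.35 in the control arrays. It fell by 0.91 (SE 0.19, adjusted p = 0.0472), again with no overlap. Ppbp lost its call in 8 of 21 refits (adjusted p up to 0.0947) and Pf4 in 12 (up to 0.139), including for both the refits that left out any 1 array labelled knockout or control replicate 1 or 2, and for Pf4 also control replicate 3.
The nearest tested genes beside the cluster, Afp and Afm before Cxcl5 and Mthfd2l and Epgn after Cxcl2, did not pass. Their log2 differences were 0.03, 1.12, 0.25 and -0.10. The platelet list in which both genes also stand was lower throughout the arrays labelled knockout, as were the mast cell and monocyte lists, and their part in the values of Cxcl5, Ppbp and Pf4 was not tested.

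The CC genes lie in 2 groups on mouse chromosome 11. In the one that holds both CC ligands that fell, the order is Ccl5, the pseudogene Ccl16-ps, Ccl9, Ccl6, Ccl3 and Ccl4, so that Ccl9 and Ccl6 stand between genes with log2 differences of 1.00 (Ccl5) and -0.21 (Ccl3). In the other, the order is Ccl2, Ccl7, Ccl11, Ccl12, Ccl8 and Ccl1, and none of these passed. Tmem98, 1 of the 2 nearest tested genes on the outer side of Ccl2, rose by 1.70 on the log2 scale (SE 0.20, limma, adjusted p = 0.00284). The nearer of the 2, 1700071K01Rik, did not pass (-0.51, adjusted p = 0.404). Untested genes were passed over in choosing flanking genes, so these need not be direct neighbours.

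**Figure D3:**
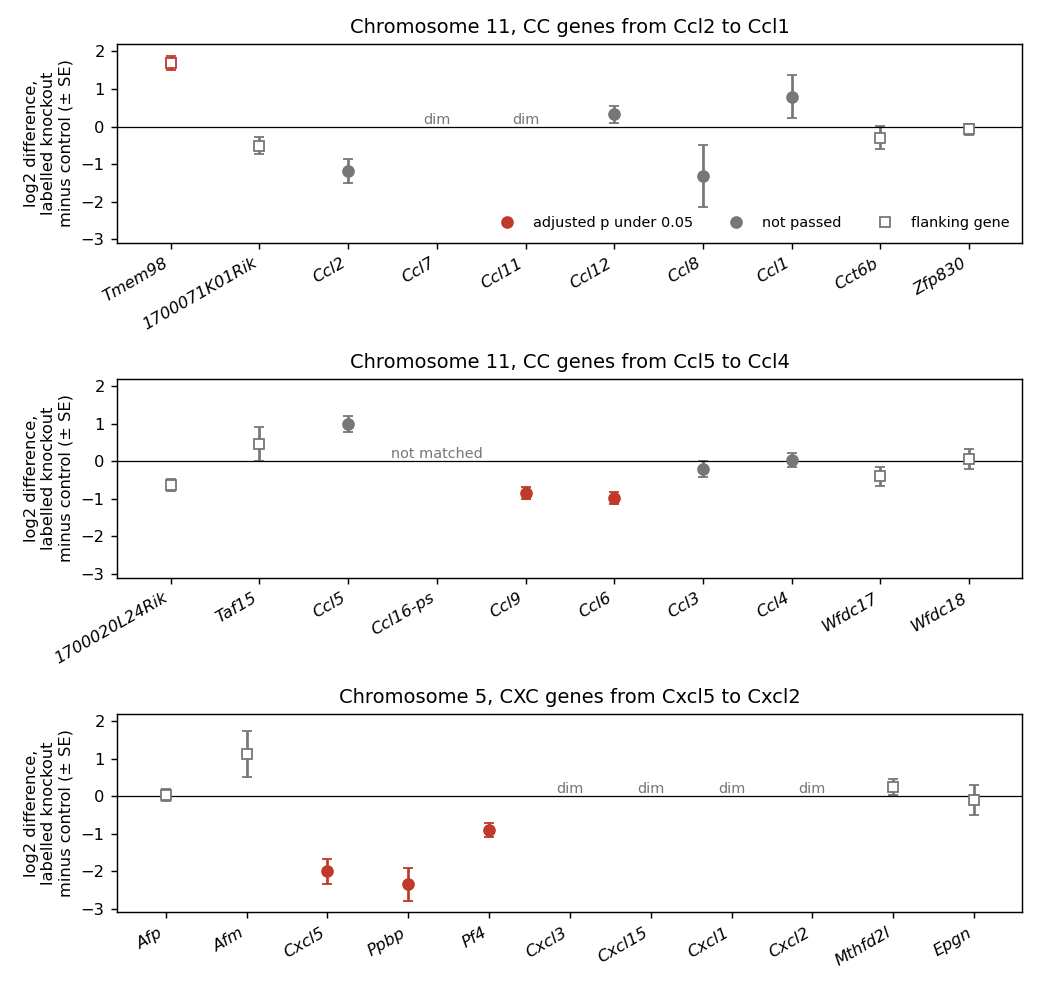
Log2 difference (vertical axis, arrays labelled knockout minus control, ± SE) of the chemokine genes and of the 2 nearest tested genes on each side. Genes are in their order on mouse chromosomes 11 and 5 (horizontal axis, not to scale), and untested genes other than chemokines are left out. Squares are flanking genes and filled circles chemokine genes. In the CXC cluster Cxcl5, Ppbp and Pf4 are lower side by side and the 4 genes after them are dim, while Ccl9 and Ccl6 are the 2 lower genes between Ccl5 and Ccl3.

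Of the CXCR3 ligands, interferon-induced chemokines that attract T and NK cells, Cxcl10 alone of the 2 on the arrays was tested. It read 1.02, 0.46 and -0.06 in the arrays labelled knockout, against 1.36, 1.78, 2.00 and 0.89 in the control arrays. The groups overlapped, since replicate 1 of the arrays labelled knockout lay above control replicate 4. The log2 difference of -1.04 (SE 0.32) missed the threshold (limma, adjusted p = 0.186) and all 21 refits did so too, at adjusted p between 0.0804 and 0.55. Cxcl9 was well above background on 1 array labelled knockout.
None of 9 tested genes of the interferon pathway passed, with 0 at an unadjusted p under 0.05. Ifit1 had the lowest log2 difference of these, -0.62 (95% interval -1.29 to 0.05, adjusted p = 0.411).

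Xcl1, made by NK cells and CD8 T cells and read by XCR1 on type 1 conventional dendritic cells, read -2.10, -2.53 and -2.94 in the arrays labelled knockout, against -4.76, -2.79, -4.88 and -3.79 in the control arrays. Control replicate 2 lay within the range of the arrays labelled knockout. The log2 difference of 1.53 (SE 0.49, 2.90-fold) missed the threshold (adjusted p = 0.197), and it passed without control replicate 2 (1.96, adjusted p = 0.0331). Xcr1 itself was well above background on at most 1 array, and the part of the higher Gzma and Nkg7 in the value of Xcl1 was not tested. Cx3cl1, a membrane-bound ligand of CX3CR1, had a log2 difference of 0.25 (95% interval -0.40 to 0.90, adjusted p = 0.767).

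Ligands tied to the movement of mature dendritic cells did not pass. Of the CCR4 ligands, which draw T cells to dendritic cells, Ccl17 had a log2 difference of -0.03 (95% interval -0.47 to 0.40, limma, adjusted p = 0.965), and Ccl22 was dim on every array. Ccl17 was well above background on 3 arrays labelled knockout but on only 2 control arrays. The CCR7 ligands guide mature dendritic cells and naive T cells into lymph nodes, and 3 of the 3 on the arrays were tested with 0 past the threshold and 1 (Ccl21b) at an unadjusted p under 0.05. Ccl21b had a log2 difference of 0.32 (95% interval 0.01 to 0.63, adjusted p = 0.358), while Ccl21a, well above background on 3 arrays labelled knockout and on 0 control arrays, had all 7 values under -5.32, so that no size of its difference is given (adjusted p = 0.674). These 2 genes are near-identical copies, as are others of the Ccl21 family, so a probe may read RNA of another copy. The Ccl21b probe read between 2.10 and 2.65 on the 7 arrays, far above the Ccl21a probe, so the 2 did not read the same RNA to a like degree. Which copies the Ccl21b probe reads was not tested.
Ccl19 was read by 2 tested probes that disagreed in sign. The brighter one read -2.66, -3.00 and -2.87 in the arrays labelled knockout, against -3.01, -2.50, -2.83 and -2.95 in the control arrays, and the groups overlapped (log2 difference -0.02, 95% interval -0.40 to 0.36, adjusted p = 0.976). The other probe read -3.00, -3.03 and -3.01 in the arrays labelled knockout, against -3.07, -3.29, -3.27 and -2.83 in the control arrays, with a log2 difference of 0.10 that did not pass when probes were tested on their own (adjusted p = 0.854). The marker list of mature dendritic cells summed to 13.1 to 15.5 in the arrays labelled knockout, against 10.9 to 16.2 in the control arrays, and 0 of its 6 genes passed (0 at an unadjusted p under 0.05).

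The ligands of CCR6, CCR8, CCR9 and CCR10, receptors known from skin, gut and mucosal homing, had 0 of 4 tested members past the threshold by limma and 1 at an unadjusted p under 0.05. That one was Ccl28, a mucosal CCR10 ligand, which read -7.58, -5.04 and -8.04 in the arrays labelled knockout, against -6.17, -4.71, -4.27 and -5.48 in the control arrays. The groups overlapped, and only 1 array labelled knockout and 2 control arrays were well above background. The log2 difference was -1.73 (SE 0.73, adjusted p = 0.359). Ccl25, a CCR9 ligand, had a log2 difference of 0.18 (95% interval -0.29 to 0.64, adjusted p = 0.772). Ccl27a, a skin CCR10 ligand, had -0.38 (-0.85 to 0.09, 0.48) and was read by 3 probes, all lower in the arrays labelled knockout, but the gene overlaps Il11ra1. Ccl1, a CCR8 ligand, was well above background on only 2 arrays labelled knockout and 1 control array. Its log2 difference of 0.80 (95% interval -0.52 to 2.12, adjusted p = 0.614) turned to -0.58 with each array's own signal floor. Ccl20, the CCR6 ligand, was dim on every array.
Cxcl16, a membrane-bound ligand of CXCR6, had a log2 difference of -0.02 (95% interval -0.33 to 0.29, adjusted p = 0.968). Cxcl12, the stromal ligand of CXCR4, was dim on every array, as were Cxcl14 and Cxcl17, and Cxcl13, a B cell attractant, was well above background on 1 array labelled knockout.

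Of the 22 tested ligands, 16 were well above background on all 7 arrays. The least detected, at exactly 3 arrays, were Ccl1, Ccl12, Ccl21a and Ccl28, and just outside the rule, at 1 array, stood Cxcl2, Cxcl9 and Cxcl13. Ccl12 and Ccl21a were detected on 3 of 3 arrays labelled knockout and on 0 of 4 control arrays, so they were tested through the arrays labelled knockout alone. The arrays labelled knockout had the lower background: their negative control spots had medians of -9.06 to -8.31, against -7.70 to -7.39 in the control arrays. The part of this difference in the values of dim probes was not tested. The 11 ligands dim on every array were Ccl7, Ccl11, Ccl20, Ccl22, Ccl26, Cxcl1, Cxcl3, Cxcl12, Cxcl14, Cxcl15 and Cxcl17. When no filter on dim probes was used, 11 ligands were called lower, of which 8 were well above background on 0 arrays. A further 8 symbols that fit the rule, among them Cxcl11 and Ccl21c, were not analysed here.

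**Figure D4:**
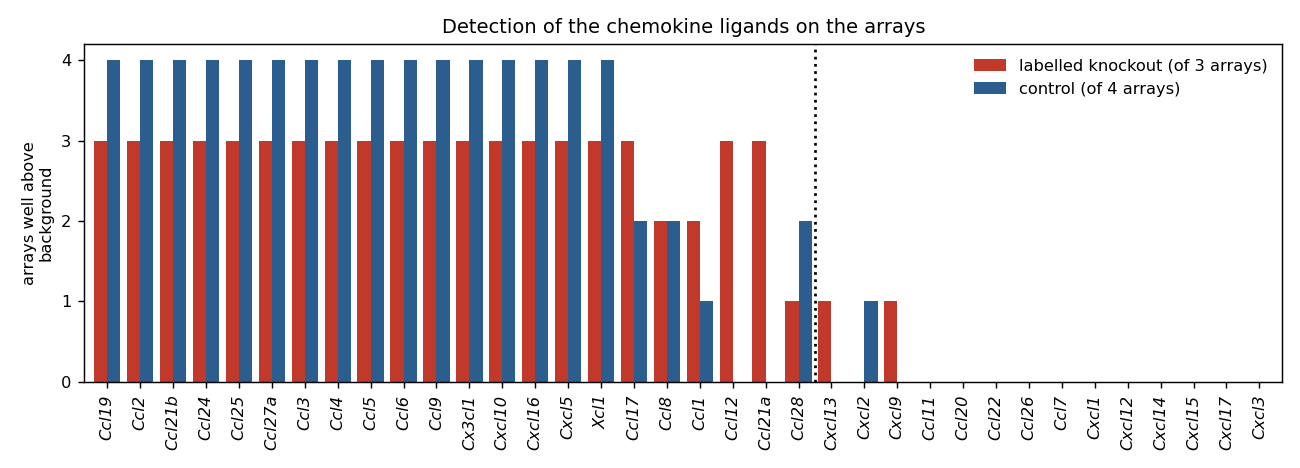
Number of arrays (vertical axis) on which each of the 36 ligands was well above background, with the arrays labelled knockout (of 3) left of the control arrays (of 4) for each gene; the dotted line parts the 22 tested ligands from the 14 dim ones. The 16 genes on the left were detected on all 7 arrays, and 11 on the right on none.

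Chemokine receptors were read for the same arrays, since a ligand acts only where its receptor stands. Of 24 listed receptors 17 were tested, and 2 fell and 0 rose by limma, beside 1.38% of all tested genes lower and 1.49% higher. At an unadjusted p under 0.05, 6 of the 17 were lower and 2 higher, beside 7.35% and 6.14% of all tested genes; the median log2 difference was -0.15. Ccr1, the receptor of Ccl6 and Ccl9, read -2.93, -2.82 and -2.74 in the arrays labelled knockout, against -1.65, -0.98, -1.52 and -1.87 in the control arrays. The groups did not overlap. Ccr1 fell by 1.33 on the log2 scale (SE 0.21, adjusted p = 0.0135). Ccr1l1, a receptor-like gene next to Ccr1 on mouse chromosome 9, read -2.62, -1.79 and -2.23 in the arrays labelled knockout, against -1.34, -1.08, -1.29 and -0.91 in the control arrays. It fell by 1.06 (SE 0.21, adjusted p = 0.0409), also without overlap. With knockout-labelled replicate 1 or 3 left out neither passed (adjusted p = 0.059 and 0.0555 for Ccr1, 0.109 and 0.153 for Ccr1l1), and Ccr1l1 was also lost without each control array in turn, at adjusted p up to 0.0989, with a common signal floor (0.0706) and with every probe tested on its own (0.08).

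Ccr2, the receptor of Ccl2, stands in the same cluster and did not pass, with a log2 difference of -0.36 (95% interval -0.65 to -0.07, adjusted p = 0.237). Ccr9, the receptor of Ccl25, which also marks plasmacytoid cells, had -0.996 (SE 0.24, adjusted p = 0.0814). Ccr7, the receptor of Ccl19 and Ccl21, had 0.35 (95% interval -0.17 to 0.87, adjusted p = 0.568). Cxcr2, the receptor of Cxcl5, did not pass (adjusted p = 0.765) and was well above background on 3 arrays labelled knockout but on only 1 of 4 control arrays, so the size of its difference is not given. Ccr3, Ccr4, Cxcr5, Xcr1, Ackr2, Ackr3 and Ackr4 were well above background on fewer than 3 arrays and were not tested.

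**Figure D5:**
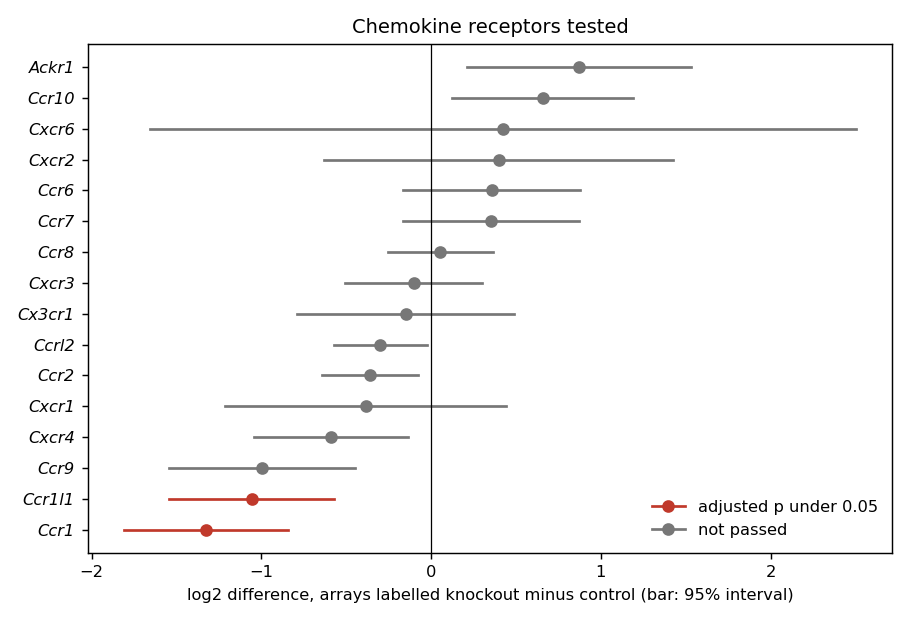
Log2 difference (horizontal axis, arrays labelled knockout minus control) for 16 of the 17 tested chemokine receptors; points are the limma estimates and bars their 95% intervals. Ccr1 at -1.33 and Ccr1l1 at -1.06 are the 2 past the threshold, and Cxcr6 has the widest interval, from -1.66 to 2.50.

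Genes of pathways known to induce many chemokines were read on the same arrays. Of 10 tested NF-kB and cytokine genes, 1 fell and 0 rose by limma, beside 1.38% of all tested genes lower and 1.49% higher. At an unadjusted p under 0.05, 1 was lower and 1 higher, beside 7.35% and 6.14% of all tested genes. Il6, a cytokine made by myeloid cells, read -4.55, -5.65 and -4.19 in the arrays labelled knockout, against -3.51, -2.52, -3.24 and -2.69 in the control arrays. The groups did not overlap, and Il6 fell by 1.81 on the log2 scale (SE 0.38, adjusted p = 0.0472), a call lost in 14 of 21 refits, each array left out in turn included (adjusted p up to 0.26). Tnf, an inducer of many chemokines, had a log2 difference of 0.56 (SE 0.16, adjusted p = 0.134). None of 4 tested genes of the type 2 response passed. At an unadjusted p under 0.05, 1 was higher (Il4ra, 0.44, adjusted p = 0.184), beside 6.14% of all tested genes.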

How the data were processed

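Spot intensity was deposited by the authors in scanner files that, per the file headers, were written by Feature Extraction 10.7.3.1 and hold a background-corrected processed signal, a median signal and a local background. No further step by the authors is stated in the sources used here. A table of log2 values was deposited too, with scale, centring and direction unstated. Differences between arrays in it matched those of the scanner values (correlation at least 0.99996, slope near 1, same direction). Its column medians were 0 but for -0.02 in replicate 3 of the arrays labelled knockout, which fits log2 values centred per probe, and it served as an alternative.

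From log2 processed signal the 75th percentile of the array (2671 to 3825 intensity units) was subtracted, with outlier and control spots left out and spots of a probe averaged. The number of arrays limits the precision, and 0 spots were saturated. Probes marked well above background on 3 or more of the 7 arrays were tested. RefSeq accessions named 26413 of 55681 probes through a table of GRCm38.p6 (79.9% of the 33064 with such an accession). Since the array design used an older build, only promoter coordinates are given, from RefSeq. The tested probe of highest mean signal stood for a gene. limma 3.58.1 (R 4.3.3; lmFit, then eBayes) compared the groups over 14549 genes without a block, with Benjamini-Hochberg adjustment and a threshold of 0.05. The test was also run on simulated data with known changes, built from the means and variances of these arrays. It recovered 62.4% of changes of log2 1 and 95% of changes of log2 2, and 4.37% of its calls were false.

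Per-array values are given for ligands past the threshold, with groups that do not overlap, with a log2 difference of at least 1, or with tested probes that disagree in sign, and for receptors, upstream genes and chemokines of other names past the threshold. The values of 1 tested receptor are not reported here. The members and lists were chosen with earlier results of these data known. No source used here says that replicate numbers pair the arrays. Deviations of same-numbered arrays correlated at -0.10, -0.17 and -0.05, and so few arrays cannot settle whether they are paired.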

Additional observations from a re-analysis of the deposited data

How the results depend on the processing

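Over 21 refits, 431 of 452 values of the tested ligands kept their direction, 2 more (Ccl12 and Ccl21a with a common signal floor) were 0 since all arrays lay under the floor, and 13 of 22 ligands kept it in all refits run for them. The count of ligands called higher, 0 in the reported setting, was 1 with normexp background correction, quantile normalization, no filter on dim probes, a filter asking for all arrays, each array's own signal floor, trended and robust variance, array weights or a threshold of 0.1 (Ccl5 each time), and 0 to 1 with an array left out. The count called lower, 3 in the reported setting, was 11 with no filter, 1 with the replicate number as a block (Cxcl5), 0 at a threshold of 0.01, and 1 to 3 with an array left out. Without replicate 1 of the arrays labelled knockout the 1 ligand called lower was Ccl2. Receptors called lower, 2 in the reported setting, numbered 1 with a common signal floor, 4 with array weights, 0 with the block, 0 at a threshold of 0.01, 1 with every probe tested on its own and 0 to 2 with an array left out. Of all genes, 217 higher became 365 with no filter, 380 with array weights, 86 with the block, 108 at a threshold of 0.01 and 126 to 220 with an array left out. The 201 lower became 2483 with no filter, 310 with each array's own floor, 374 with array weights, 95 with the block, 96 at a threshold of 0.01 and 106 to 172 with an array left out. Values that turned sign were all of ligands that did not pass. Those log2 differences were -0.0164 (Ccl1) and 0.0747 (Ccl17) with the common floor, -0.58 (Ccl1), -0.30 (Ccl12) and -0.46 (Ccl21a) with each array's own floor, and -0.0267 (Ccl12) and -0.19 (Ccl21a) with normexp. They were 0.0309 (Ccl17) and 0.0430 (Ccl19) after quantile normalization, 0.135 (Ccl17), 0.0610 (Ccl19) and 0.00806 (Cxcl16) with array weights, and -0.0492 (Ccl4) with the replicate number as a block. With an array left out they spanned -0.202 to 0.175 for Ccl17, -0.112 to 0.0858 for Ccl19, -0.154 to 0.155 for Ccl4, -0.0395 to 0.385 for Ccl25, -0.00531 to 0.497 for Cx3cl1 and -0.0764 to 0.0602 for Cxcl16. Whether the replicate numbers pair the arrays is not known. With them as a block, which leaves out control replicate 4, Ccl6 (limma, adjusted p = 0.155), Ccl9 (0.21), Ccr1 (0.0516), Ccr1l1 (0.125), Ppbp (0.0947), Pf4 (0.122) and Il6 (0.26) missed the threshold. Of the 11 ligands called lower without a filter, 8 were well above background on 0 arrays, and the causes of the other changes were not tested.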
